A study of Rattus norvegicus with 4 samples.

Results

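The potassium channel genes analysed here are the 86 genes whose symbol begins with Kcn in a list of peaks of histone H3 trimethylated at lysine 27 (H3K27me3), out of 10647 genes that the list names. They were taken by symbol, without regard to any measured value, and fall into 20 subfamilies, named by the letters after Kcn. The chromatin came from sciatic nerve of male Sprague Dawley rats at postnatal day 42. All of it was from sham-operated nerve, that is, from limbs with a skin incision alone, taken 1 day after the opposite nerve was transected, so each animal also carried an injury on its other side. There were 2 H3K27me3 libraries and 2 libraries of input chromatin, and the authors' peak list combines the H3K27me3 libraries into 1 value per peak. No spread between replicates can therefore be given, and no test across samples is possible. The number of animals per library was not given in the sources used here. Sciatic nerve is a mixture in which Schwann cells, the cells of its sheaths and vessels and immune cells surround axons, and more cells with the mark and more mark per cell cannot be told apart.

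Potassium channels let potassium ions leave or enter cells along their gradient and so set the resting potential and end action potentials. The pore is built from alpha subunits, which are voltage-gated, calcium- or sodium-activated, inwardly rectifying or of the two-pore leak type, and auxiliary subunits change their gating and transport. In myelinated nerve, voltage-gated channels of the Kcna and Kcnq families sit in the axon beside and at the nodes of Ranvier, two-pore channels carry the leak current of the node, and glial inward rectifiers take up potassium that axons release. H3K27me3 is placed by the Polycomb complex PRC2 and is known as a mark of silenced developmental and tissue-restricted genes, often at promoters rich in the dinucleotide CpG.

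The sequences just upstream of 5 channel genes show how different the promoters are that the peaks do and do not reach. They are the 250 bases before an annotated start, from RefSeq on the rat assembly GRCr8, with every CpG in capitals, and the gene, not the position, links them to the peaks, which are on the older assembly rn5. Kcnk4 (chr1:213555862-213556111, minus strand) encodes the mechanosensitive TRAAK leak channel and had the highest-scoring promoter peak of all channel genes. Kcna2 (chr2:197393280-197393529, plus strand) encodes an axonal channel of the juxtaparanode, and its start lay between a pair of peaks. Kcnj10 (chr13:87334260-87334509, plus strand) encodes the main inward rectifier of glia, and its start lay just downstream of a broad peak. Kcnj2 (chr10:96559975-96560224, plus strand) encodes another inward rectifier of Schwann cells and had no promoter peak, and neither had Kcna4 (chr3:114215086-114215335, plus strand), an axonal and presynaptic channel gene. The 5 were chosen after their values were seen.
Kcnk4: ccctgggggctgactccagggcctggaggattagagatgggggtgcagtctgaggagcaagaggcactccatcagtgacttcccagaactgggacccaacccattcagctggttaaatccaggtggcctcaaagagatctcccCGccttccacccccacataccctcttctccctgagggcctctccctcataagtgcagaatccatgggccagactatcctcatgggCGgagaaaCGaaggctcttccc
Kcna2: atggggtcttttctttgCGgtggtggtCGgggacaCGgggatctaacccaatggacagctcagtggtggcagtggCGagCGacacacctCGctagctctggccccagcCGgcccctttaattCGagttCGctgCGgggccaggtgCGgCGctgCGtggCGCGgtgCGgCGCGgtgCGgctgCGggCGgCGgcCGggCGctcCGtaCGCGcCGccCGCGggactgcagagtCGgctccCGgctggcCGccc
Kcnj10: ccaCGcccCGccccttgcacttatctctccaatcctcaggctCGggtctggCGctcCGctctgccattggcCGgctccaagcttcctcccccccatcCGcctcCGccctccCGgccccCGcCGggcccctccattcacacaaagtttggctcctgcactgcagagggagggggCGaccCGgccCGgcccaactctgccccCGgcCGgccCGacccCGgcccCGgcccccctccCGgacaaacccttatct
Kcnj2: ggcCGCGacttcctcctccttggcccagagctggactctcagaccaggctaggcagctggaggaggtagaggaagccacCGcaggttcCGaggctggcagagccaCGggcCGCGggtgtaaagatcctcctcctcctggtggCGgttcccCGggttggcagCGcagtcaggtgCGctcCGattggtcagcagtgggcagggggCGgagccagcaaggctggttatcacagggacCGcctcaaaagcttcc
Kcna4: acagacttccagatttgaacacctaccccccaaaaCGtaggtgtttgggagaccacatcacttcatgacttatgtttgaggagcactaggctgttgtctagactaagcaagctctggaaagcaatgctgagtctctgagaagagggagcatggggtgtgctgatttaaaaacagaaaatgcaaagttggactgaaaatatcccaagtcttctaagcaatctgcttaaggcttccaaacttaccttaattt
The windows held 3 CpG in Kcnk4, 33 in Kcna2, 20 in Kcnj10, 14 in Kcnj2 and 1 in Kcna4, so the channel gene with the highest score had few and a gene without a promoter peak had several. Whether the start on the newer assembly is the one used in the peak list was not examined.

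Most potassium channel genes carried H3K27me3 at a promoter in the sham-operated nerve. A promoter peak is here a peak that reaches within 1000 bp of the transcription start site (TSS) of the gene to which the authors' annotation assigns it, the nearest one. Of the 86 genes, 72 (83.7%) had such a peak, against 38.6% of the protein-coding genes that the list names. The RefSeq table holds 95 protein-coding Kcn genes, of which 72 are 75.8%, against 17.2% of all 23154 protein-coding genes. The 9 that no peak names include Kcnd1, Kcnd2l1, Kcnj13, Kcnj14, Kcnk6, Kcnk7, Kcnu1 and Kcnv2, and whether the authors' annotation included them was not examined. Of all 23154 protein-coding genes the list names 10296, and whether the annotation held the rest was not examined either. Any that it lacked count as unmarked in the shares of all protein-coding genes here and below. Most of the peaks were well above the weakest of the list: 63 of the 95 genes (66.3%) had a promoter peak in the top 25% of all peak scores, 9.9 or more, against a background of 12.6%. Peaks of at least 5000 bp reached the promoters of 12 of the 95 genes, against 547 of all 23154 (2.36%). Among genes with a promoter peak the differences were smaller. There 87.5% of the 72 channel genes and 73.3% of 3906 others had one in the top 25% of scores. One of at least 5000 bp was found in 12 of the 72 and in 547 of all 3978. In 33 genes (34.7% of the 95) a peak contained an annotated TSS, against a background of 6.15%.

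The peaks at channel promoters varied widely in size. Their widest promoter peaks had a median of 1965 bp (quartiles 1132 and 3762 bp), against 1340 bp (368 and 3193 bp) in 3906 other protein-coding genes with a promoter peak. The highest promoter peak score per gene, the authors' own value without a stated scale, had a median of 67.5 (quartiles 36.4 and 148), against 40.4 (8.87 and 123) in the others. Of the 72 genes, 50 lay in the upper 50% of all promoter peak genes by score, and 7 in the top 10%. The lower quartiles of the score were thus further apart than the upper ones. Scores lie on a grid of 0.206, and the 95% intervals below treat a grid step as 1 sequenced tag, an assumption. They cover counting error only, and the depth of the libraries is unknown.

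The genes with the highest scores came from several classes. Kcnk4 led with 820.1 (interval 795 to 846) over 12576 bp on chromosome 1 (229171673 to 229184249, rn5), centred in its intron 1, and ranked 104 of 3978 promoter peak genes. Kcns1, which encodes a silent modifier subunit, followed with 530.3 (510.0 to 551) over 10524 bp (chromosome 3, 166744154 to 166754678). Kcnh5, an ether-a-go-go channel gene, scored 340.1 (324 to 357) over 8918 bp (chromosome 6, 107574659 to 107583577). The intervals of Kcnk4 and Kcns1 overlapped with no other channel gene's. That of Kcnh5 overlapped with those of Kcnk15 (323.8, 308 to 340.2), Kcnk10 (322.6, 307 to 339) and Kcnj5 (314.2, 299 to 330.4), which also overlapped among themselves. Kcnk13 followed with 291.7 (277 to 307), an interval below those of Kcnh5 and Kcnk15. Kcnc2 (265.7), Kcng1 (250.8), Kcnj9 (223.4), Kcna3 (220.7), Kcng3 (205.9), Kcnk12 (203.4) and Kcnj10 (189.2) were also among the 15 highest. At the other end, 9 of the 72 genes had only peaks under the top 25% of scores, and Kcne5, on the X chromosome, had the lowest value with 3.71 (2.20 to 5.86) from a peak of the smallest width, 150 bp.

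**Figure D1:**
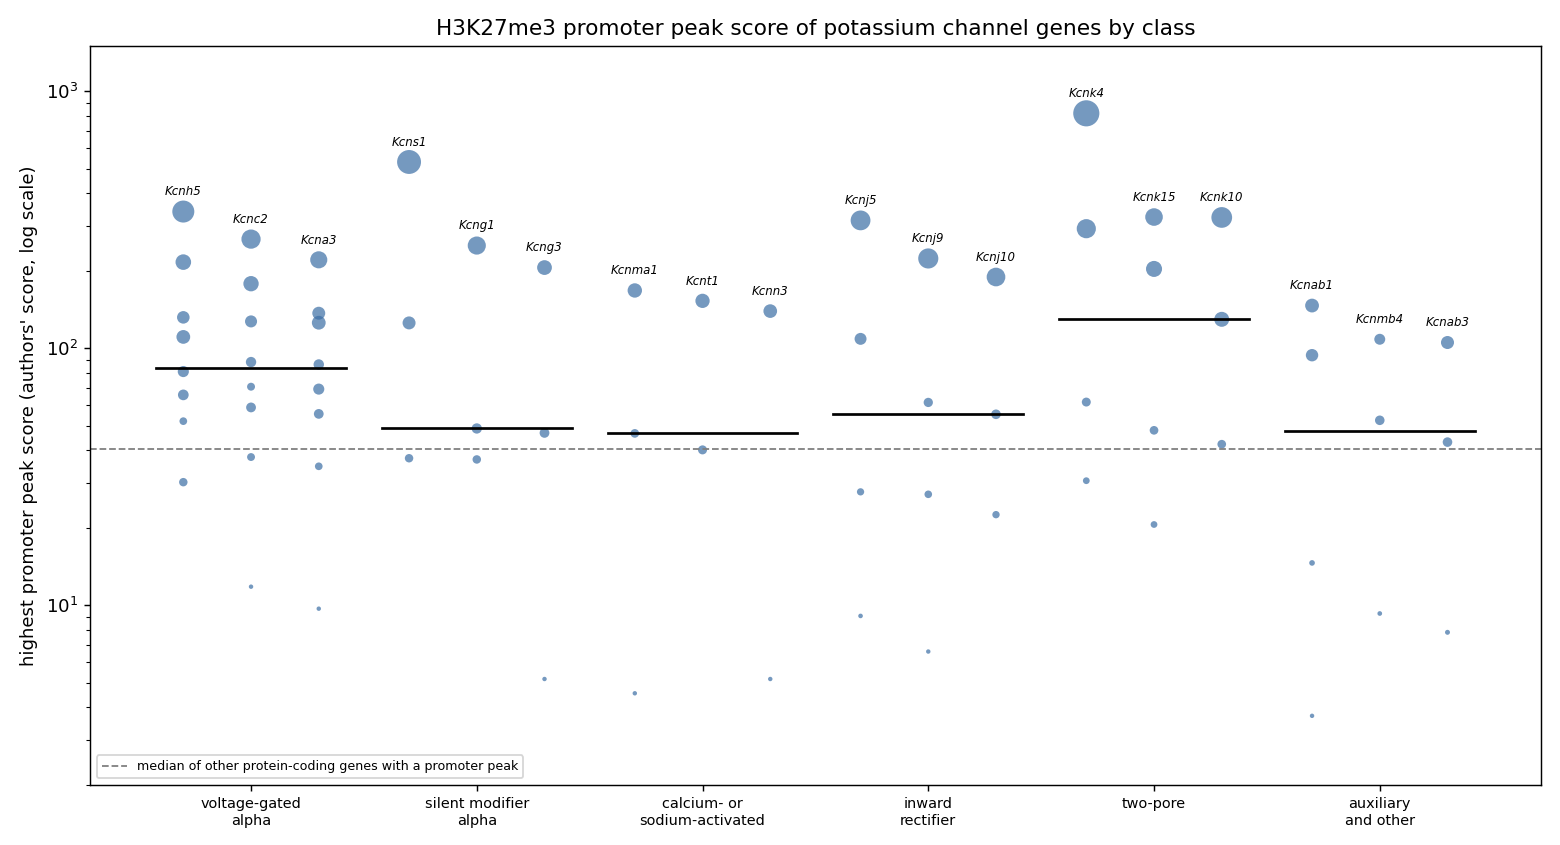
Highest H3K27me3 promoter peak score of each of the 72 potassium channel genes with a promoter peak, on a log axis, by functional class; the dot area grows with the width of the gene's widest promoter peak, black lines are class medians, and the 3 highest genes of each class are named. Two-pore channel genes had the highest class median, 129.5, and the dashed line marks the median of 40.4 in other genes.

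Voltage-gated alpha subunits form tetramers that open on depolarisation. Of their 28 named genes, 24 (85.7%) had a promoter peak, with a median score of 83.8 and a median width of 2190 bp. For this class and those below, the shares for comparison are 83.7% of named channel genes and 38.6% of named protein-coding genes. Among the Kcnc genes, whose fast channels allow high firing rates, Kcnc2, Kcnc4 (178.2) and Kcnc1 (136.8) had a promoter peak. Among the Kcnq genes, which encode the M-current and related slow channels, Kcnq1 had one with 81.1, Kcnq5 with 69.3 and Kcnq3 with 65.8, and none of these peaks contained the TSS. Of the 8 Kcnh genes, 7 had a promoter peak. Below Kcnh5, Kcnh2, the cardiac repolarisation channel gene, scored 127.1, Kcnh8 125.6, Kcnh1 58.8, Kcnh7 52.0, Kcnh4 37.7 and Kcnh6 30.1. Kcnh3, a gene of forebrain neurons, had none, and the closest peak assigned to it ended 8256 bp away. Of the 8 Kcna genes 6 had one, namely Kcna3, Kcna1 (110.6), Kcna2 (88.3), Kcna7 (70.8), Kcna6 (55.5) and Kcna5 (11.8), and Kcna4 and Kcna10 had none. Kcnb2 had a promoter peak (86.4). The Kcnd genes of the A-type current were low, Kcnd2 with 34.7 and Kcnd3 with 9.69, although Kcnd2 had a stronger peak of 100.7 centred at -2889 bp from its TSS, that is, upstream.

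Silent modifier subunits make no channel alone and alter Kcnb channels when they join them. All 9 of their named genes had a promoter peak, against 83.7% of named channel genes. After Kcns1, Kcng1 and Kcng3 came Kcng2 (125.4), Kcns3 (48.7), Kcnf1 (46.8), Kcns2 (37.3) and Kcnv1 (36.9), and Kcng4 stood far below with 5.16 (3.34 to 7.62). The class thus held both the second-ranked channel gene and one of the lowest values.

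Calcium- and sodium-activated channels couple potassium efflux to ion entry. All 7 named genes had a promoter peak, against 83.7% of named channel genes. Kcnma1, the large-conductance BK channel gene of smooth muscle and neurons, led with 167.7 (156 to 180), followed by the sodium-activated Kcnt1 (152.8) and the small-conductance Kcnn3 (139.4). Kcnt2 had 46.6 and Kcnn2 40.2. Kcnn1 (5.16) and Kcnn4 (4.54), the latter the intermediate-conductance channel gene of blood and immune cells, had promoter peaks of at most 191 and 199 bp, but Kcnn1 also had a peak of 135.9 centred at -8895 bp.

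Inward rectifiers hold the resting potential, and several are gated by G proteins or ATP. Of 13 named Kcnj genes, 11 (84.6%) had a promoter peak, close to the 83.7% of named channel genes, with a median score of 55.3. The G-protein-gated group was covered throughout: Kcnj5 (314.2), Kcnj9 (223.4), Kcnj3 (61.5) and Kcnj6 (27) all had one, though at very different scores. Of the ATP-sensitive pore genes, Kcnj8, the vascular form, had 108.7 and Kcnj11, the form of beta cells and muscle, 6.60 (4.51 to 9.32). Kcnj10 had 189.2, Kcnj4 55.3, Kcnj12 27.6, the renal Kcnj1 22.5 and Kcnj16 9.08. Kcnj2 and Kcnj15 had no promoter peak. Kcnj9 and Kcnj10 are neighbours, and their peaks on chromosome 13 were 3261 bp apart.

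Two-pore channels carry the background leak current. Of 12 named Kcnk genes, 11 (91.7%) had a promoter peak, all 11 in the top 25% of scores. In 9 genes a peak contained a TSS. The widest promoter peaks of the class had a median of 4134 bp. The highest were Kcnk4, Kcnk15, Kcnk10, Kcnk13 and Kcnk12, a set that spans the mechanosensitive, acid-sensitive and halothane-inhibited groups, and after them came Kcnk1 (129.5), Kcnk3 (61.7), Kcnk5 (47.9), Kcnk9 (42.3), Kcnk18 (30.5) and Kcnk2 (20.6, 16.8 to 25.1). Kcnk2 belongs to the mechanosensitive group with Kcnk4 and Kcnk10, so that group held both the highest and the lowest score of the class. Kcnk16, a gene of the pancreas, had no promoter peak, and its only peak, of score 2.89, was 6749 bp away.

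Auxiliary subunits had promoter peaks less uniformly, in 10 of 17 named genes (58.8%, against 83.7% of named channel genes). All 3 beta subunit genes of Kcna channels had one, Kcnab1 with 146.5, Kcnab3 with 105.2 and Kcnab2 with 7.84. Of the Kcnip genes, which encode calcium sensors of Kcnd channels, Kcnip1 (93.9), Kcnip4 (52.4) and Kcnip3 (14.6) had one and Kcnip2 none. Of the 4 beta subunit genes of the BK channel, Kcnmb4, the neuronal form, had one (108.3), and Kcnmb1, the smooth muscle form, Kcnmb2 and Kcnmb3 had none. Among the small Kcne subunits Kcne3 (43.1), Kcne4 (9.28) and Kcne5 had one, and Kcne1 and Kcne2 did not. The closest peaks assigned to Kcne1 and Kcne2 were 15810 and 9214 bp away. Kcnrg, a regulator rather than a channel, had no promoter peak, and the closest peak assigned to it was 86676 bp from its TSS. With so few genes in each group, whether the auxiliary class differs from the pore-forming classes was not tested.

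**Figure D2:**
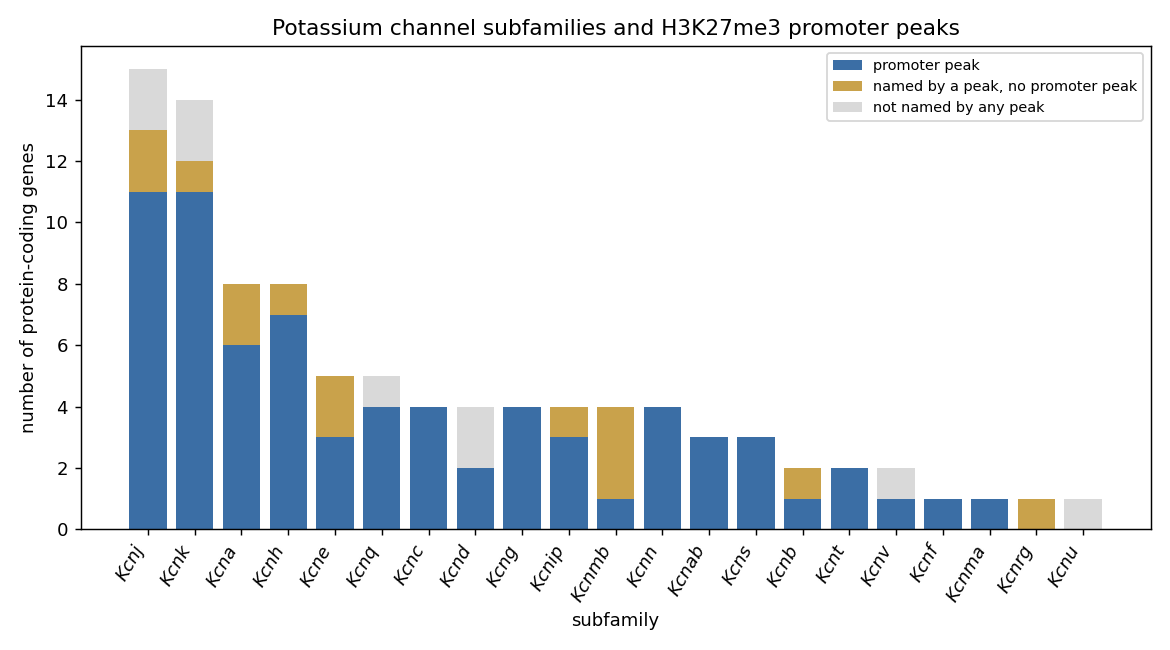
Number of protein-coding potassium channel genes in each subfamily with a promoter peak (blue), named by a peak but without a promoter peak (ochre) and not named by any peak (grey). Kcnj and Kcnk each had 11 genes with a promoter peak, and Kcnmb had 1 of 4.

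Genes of channels reported in Schwann cells and oligodendrocytes had promoter peaks about as often as channel genes in general. Of 8 such genes 6 (75%) had a promoter peak, against 75.8% of the 95 channel genes and 17.2% of all protein-coding genes. At only 1, Kcna1, did a peak contain the TSS, against 34.7% of the 95. Kcnj10 had the highest promoter peak score of the list, with a peak of 6412 bp (189.2) that ended 270.0 bp upstream of the TSS and a second of 1443 bp (45.6) that began 22.5 bp downstream of it. At Kcna1 a peak of 3485 bp (110.6) ran from -858.5 to 2626.5 bp relative to the TSS. At Kcna2 peaks of 1900.0 bp (88.3) and 1971 bp (69.9) lay on either side of the TSS, which was free over 522 bp. Kcnj4, an inward rectifier of Schwann cell microvilli, had 1705 bp (55.3) upstream and 912 bp (28.3) downstream, and its strongest peak, 255.0 over 5073 bp, lay inside the gene 8473 bp from the TSS. The widest promoter peak of each of these 4 genes was thus at least 1705 bp. Over all 6 glial genes with a promoter peak its median was 1838 bp, against 1965 bp in the 72 channel genes. Kcna5, the delayed rectifier gene best known from Schwann cells, had only short peaks, the strongest promoter peak being 347 bp with a score of 11.8 (8.94 to 15.3). Kcnj16, whose product pairs with that of Kcnj10, had 390.0 bp with 9.08 (6.60 to 12.2). Kcnj2 had no promoter peak. Its nearest assigned peak, 2929 bp downstream, scored 3.30, with a stronger one of 48.9 from -4917.5 to -3430.5 bp.

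Among genes of axonal channels 10 of 11 (90.9%) had a promoter peak, in tissue that holds axons but not the nuclei of their neurons. Of all channel genes 75.8% had one, and of all protein-coding genes 17.2%. Kcnk4 (820.1), Kcnab1 (146.5) and Kcnc1 (136.8) led. Kcna1 and Kcna2 belong to both lists. Kcnq5 (69.3) and Kcnq3 (65.8) were close, with overlapping intervals (62.1 to 77.1 and 58.8 to 73.4), and Kcnk2 (20.6) and Kcnab2 (7.84) were lowest. At Kcnc1 peaks of 3080 bp (136.8) and 2986 bp (104.6) flanked a TSS gap of 486 bp. Kcna4 had no promoter peak by the 1000 bp rule, but a peak of 2081 bp (69.5) lay from -4247.5 to -2166.5 bp. Of the markers of the nerve's cell types, the neuronal genes Snap25 (91.2), Rbfox3 (26) and Elavl4 (202.6) had promoter peaks, as did Egr2 (72.6), a Schwann cell gene, and Pdgfra (561.3), a fibroblast gene. The Schwann cell gene Sox10 (4.13) and the fibroblast gene Col1a1 (4.95) had only promoter peaks of 150 bp. The endothelial genes Pecam1 and Cdh5 and the immune gene Ptprc had none.

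**Figure D3:**
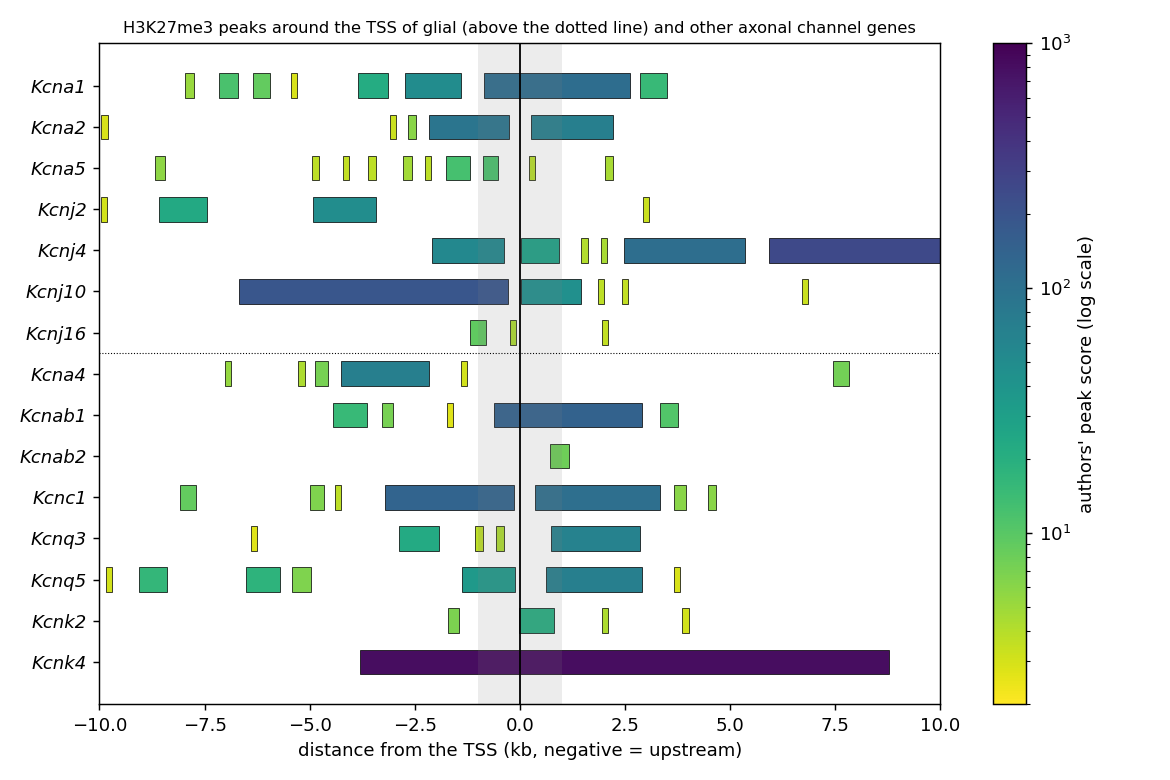
H3K27me3 peaks within 10 kb of the TSS of glial channel genes (above the dotted line) and of other axonal channel genes. Only peaks assigned to the gene shown are drawn. They are coloured by the authors' peak score on a log scale, and the 1000 bp reach is shaded. Kcnk4 had a single peak across the TSS, Kcna2 and Kcnc1 had a pair of peaks with a gap at the TSS, and at Kcnj2 and Kcna4 the peaks stayed outside the reach.

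Genes of channels known from immune cells and from cardiac and smooth muscle were also examined. Of the immune list, 3 of 4 genes (75%) had a promoter peak, a share close to that of all channel genes, 75.8%. Kcnk13, a channel gene of microglia and related cells, had 291.7, Kcna3, the channel of T lymphocytes, 220.7, and Kcnn4 only 4.54. Kcnk6, the other gene of that list, is named by no peak. Of 10 cardiac and smooth muscle channel genes 7 (70%) had a promoter peak. Of all channel genes 75.8% had one, and of all protein-coding genes 17.2%. The 7 were Kcnj5 (314.2), Kcnma1 (167.7), Kcnh2 (127.1), Kcnj8 (108.7), Kcnq1 (81.1), Kcnj3 (61.5) and Kcnd3 (9.69). Kcne1, Kcnip2 and Kcnmb1 had none. Kcnma1 and its smooth muscle partner Kcnmb1 thus stood on opposite sides of the rule, as did Kcnd3 and its partner Kcnip2, and Kcnq1 and Kcne1, although Kcnd3 passed only narrowly.

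The peaks often stopped short of the TSS itself. At the TSS of the highest-scoring promoter peak of each gene, a peak contained the TSS in 31 of 72 channel genes (43.1%), peaks lay on both sides of an uncovered TSS in 26 (36.1%), downstream only in 9 (12.5%) and upstream only in 6 (8.33%). In the 26 genes with a pair the uncovered stretch had a median of 636 bp, from 234 bp at Kcnq1 to 1690.0 bp at Kcne3, and the downstream peak had the higher score in 18 of them. Averaged over the 72 genes, the share with a peak over a position was 65.3% at 850 bp upstream, 37.5% at 50 bp upstream and 77.8% at 900 bp downstream. Other genes with a promoter peak showed the same dip, with 52.8% at 750 bp upstream, 35.3% at the TSS and 58.2% at 950 bp downstream. In the 1342 other genes whose widest promoter peak was between the channel genes' quartiles, 43.7% had a peak over the TSS and 38.2% a pair, shares close to those of the channel genes.

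**Figure D4:**
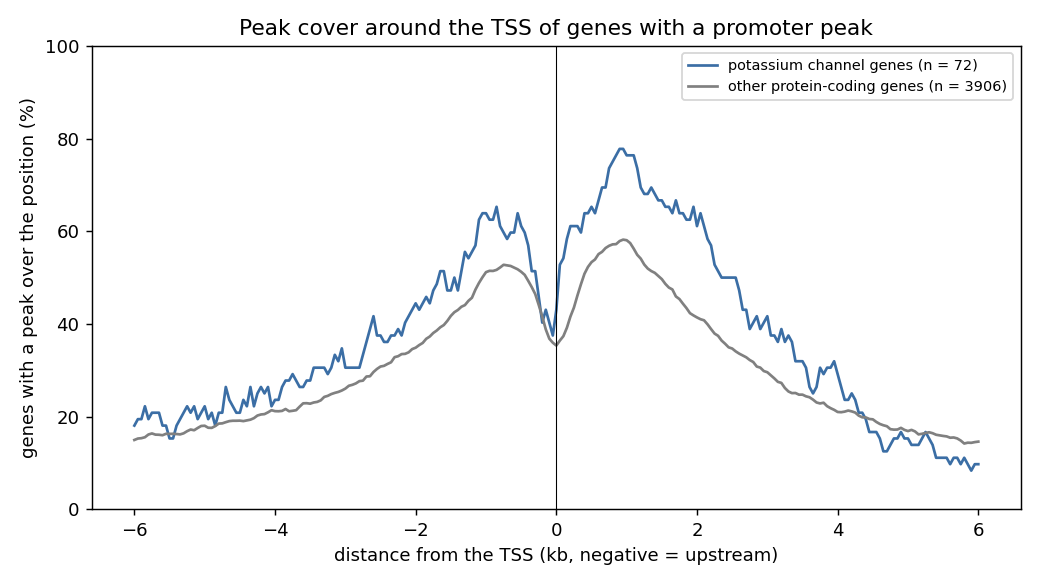
Share of genes with an H3K27me3 peak over each position from 6 kb upstream to 6 kb downstream of the TSS, for the 72 potassium channel genes (blue) and 3906 other protein-coding genes (grey) with a promoter peak; the rule for a promoter peak itself favours positions near the TSS. Both curves fell at the TSS, to 37.5% in channel genes just upstream of it and 35.3% in the others.

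Joining nearby peaks can widen a marked stretch but not narrow it, and it widened the stretch at most channel genes. Several promoter peaks were found in 43 of the 72 genes (59.7%, against 44.3% of the others). When peaks within 5000 bp were joined, the stretch that held the highest-scoring promoter peak had a median of 11186 bp (quartiles 5612 and 18510 bp), against 8944 bp (3828 and 19671 bp) in other genes. These stretches include the gaps between peaks and can include peaks assigned to other genes. Among the widest were those at Kcnk18 (86873 bp from 28 peaks), Kcnj1 (38794 bp from 27) and Kcnc1 (29034 bp from 14), and Kcnj9 and Kcnj10 shared 1 stretch of 24253 bp. Kcnk4, by contrast, stayed at its single peak of 12576 bp, and Kcnh4, Kcnab2, Kcnn1 and Kcne5 also stayed at a single peak.

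Channel genes that lie side by side did not carry the mark evenly. On chromosome 2 Kcna3 (220.7) and Kcna2 (88.3), with 63441 bp between their peaks, both had promoter peaks. The adjacent Kcna10 had none, and the closest peak assigned to it was 11298 bp away. On chromosome 4 Kcna1 (110.6) and Kcna5 (11.8) lay 110235 bp apart. Kcna6 (55.5), their neighbour in the newer assembly, is placed farther away in rn5 (chromosome 4, 232322975 to 232324722). On chromosome 8 Kcnj5 (314.2) and Kcnj1 (22.5) lay 43849 bp apart, and on chromosome 10 the weakly marked Kcnj16 lies beside Kcnj2, which had no promoter peak. Kcnj8 (108.7) was accompanied by its regulatory partner Abcc9 (48.1), and Kcnj11 (6.60) by Abcc8 (27.2). No TSS of another gene that could be placed from the list lay within a channel gene's highest-scoring promoter peak. Of the 30 adjoining protein-coding genes of the 15 highest-scoring channel genes in the RefSeq table, however, 11 are named by no peak, among them Catsperz and Gpr137 beside Kcnk4, so their starts could not be placed.

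Partners of the channels outside the Kcn family were also mostly marked. Of 14 such genes, 10 (71.4%) had a promoter peak, against 17.2% of all protein-coding genes. The pacemaker channel genes Hcn4 (169.3), Hcn2 (64.2) and Hcn3 (4.33) did, as did the BK gamma subunit genes Lrrc26 (220.1), Lrrc38 (135.1) and Lrrc55 (84.6), and Dpp6 (59.2), a partner of Kcnd channels. Dpp10, Amigo1 and Lrrc52 had none, and Cntnap2, which clusters Kcna channels at the juxtaparanode, is named by no peak. Other ion channel families were marked too. Of the genes in the RefSeq table, 8 of 10 calcium channel alpha1 subunits and 43 of 60 ligand-gated neurotransmitter receptors (71.7%) had a promoter peak. So did 6 of 10 voltage-gated sodium channel alpha subunits. Of all protein-coding genes 17.2% had one. The median scores were 52.1, 60.8 and 7.83, against 67.5 in potassium channel genes. These shares and medians are descriptions, and the differences between families were not tested.

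Promoters of channel genes with a promoter peak held more CpG in the median than those without. RefSeq upstream windows of 250 bases were matched for 59 of the 86 genes, taking the first listed start. The 49 with a promoter peak had a median of 16 CpG per window (range 1 to 44) and a GC content of 64.8%, and the 10 without one a median of 5 (1 to 14) and 53.6%. The same direction was seen in other genes, with medians of 13 CpG in 2966 with a promoter peak and 8 in 15975 without. At least 10 CpG, counted on 1 strand since the dinucleotide reads the same on both, were present in 65.3% of the windows of channel genes with a promoter peak, in 2 of the 10 without and in 48.6% of the windows of all protein-coding genes. The ranges of both groups overlapped. The 9 genes with a peak of at least 5000 bp and a window ranged from 2 to 29, with Kcnk4 (3), Kcnc2 (2), Kcnj9 (6) and Kcnj5 (8) at the low end.

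The reach of 1000 bp matters to the count, since 33 of the 72 genes had a peak over a TSS itself. Just inside the reach lay Kcnd3 (827 bp from the TSS to the peak's edge), Kcnn1 (920 bp) and Kcne5 (982 bp), and just outside Kcna4 (1254 bp) and Kcnj15 (1734 bp). Of the 14 genes without a promoter peak, 5 had an assigned peak within 5000 bp of a TSS.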

How the data were processed

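H3K27me3 was measured by micrococcal nuclease chromatin immunoprecipitation and sequencing in 2 libraries, with 2 input libraries. The submitters' processing notes name CASAVA 1.8.2, Bowtie and HOMER. Per the file headers, the authors' combined peak list was annotated with HOMER on rn5. Not given in the sources used here were the calling settings, the Bowtie version, any use of input and how libraries were combined. No scale was stated for the score that the authors deposited for each peak, and coordinates, widths and distances to the TSS were deposited in bp. The 129550 peaks have 1 value each, so the spread between libraries and their depth are unknown.

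Members were matched by symbol to the RefSeq table of GRCr8. Of 10647 named genes, 10567 matched by identifier and 10 by symbol. A gene without a peak that names it counted as lacking a promoter peak in shares of the table. TSS positions were recovered from peak centres and distances, and the code was tested on simulated data. Scripts used Python 3.11.15, pandas 2.3.3, numpy 2.4.6 and scipy 1.17.1. Score intervals are exact 95% Poisson intervals on grid steps.

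No test was made. Counts and medians stand beside those of all protein-coding genes. Named genes are the 15 with the highest promoter peak score, the highest of each subfamily, the glial, axonal, immune, cardiac and smooth muscle lists, listed neighbours and partners, and up to 3 on each side of the promoter limit. Others, named to account for every member, were chosen after their values were seen. Some genes counted in the totals are not reported here by name. The members and lists were chosen with earlier results of these data known. Alternatives changed the promoter reach, the peaks used, the joining of peaks and the assignment of peaks to genes.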

Additional observations from a re-analysis of the deposited data

How the results depend on the processing

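The count of 72 channel genes was between 63 and 77 with a reach of 5000 bp, with minimum scores, with joined peaks and with any peak near the TSS counted. It was 33 with a peak required over the TSS, 40 with peaks centred in the authors' promoter-TSS class alone and 35 with peaks of at least 2000 bp, while the share of all protein-coding genes went from 17.2% to 6.15%, 8.27% and 6.85%. Under these settings, in that order, the median width was 3431, 846 and 3808 bp, the median score 125.4, 29.3 and 152.8, and the glial count 1, 2 and 2. The axonal count was 4 with the TSS contained and 4 in the promoter-TSS class. With peaks joined across gaps of up to 5000 bp, the widths had a median of 11186 bp and summed scores one of 165. Each of these settings used fewer or joined peaks. Median width and score fell in the promoter-TSS class and rose under the others. A minimum width removes the narrower peaks, and joining can only widen stretches and add scores. The rise in width under both, and in score with joining, thus follows from the settings. The reasons for the other changes were not tested. Among subfamily counts and single gene scores, 346 values stayed close and 102 moved. These values leave out the scores of genes that lost their promoter peak under a setting. Kcna2 and Kcnj10 lost theirs with a peak required over the TSS, for example, and Kcnab2 with a score in the top 25% required. The single gene scores thus depended on the settings more than the 102 shows. No paired analysis was possible because the peak list has no values per library, and for the same reason no library could be left out.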

Other observations

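Many peaks assigned to channel genes lay away from their promoters. The 86 genes were named by 1522 peaks, of which 122 (8.02%) were promoter peaks that held 39.9% of the summed score, against 4.81% and 26.1% for all peaks. By their centre, 60.1% of the channel peaks were intergenic and 35.0% intronic, against 74.7% and 21.8% of all peaks. The number of peaks per gene ranged from 1, in 7 genes, to 127 at Kcnj2, with a median of 11.5. The highest peak of a gene was its promoter peak in 53 genes, and in 19 others with a promoter peak it lay elsewhere.

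Examples of these peaks, picked after their values were seen, were a 10383 bp peak of score 697.8 centred at -18887 bp from the TSS of Kcnk18, a pain-related two-pore channel gene, and a peak of 240.9 centred at -162061 bp from that of Kcnab1. Kcnmb2, without a promoter peak, had a peak of 166.3 at -264273 bp, and the highest peak of Kcnj2 (80.7) was 852882 bp downstream. A peak is assigned to the gene of the nearest TSS, which at such distances does not tie it to that gene.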
